A study of Mus musculus with 6 samples.

Results

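The striated muscle miRNAs, a small set of miRNAs known above all from heart and skeletal muscle, were followed in kidney tissue of mice exposed to chronic intermittent hypoxia (CIH) and of Control mice. They were picked by name, with earlier results of these data known, as every mature miRNA of the families miR-1a, miR-1b, miR-133a, miR-133b, miR-206, miR-208 and miR-499. Of the 495 mature miRNAs in the counts, 6 belong to these families. These are mmu-miR-1a-3p, mmu-miR-133a-3p, mmu-miR-133b-3p, mmu-miR-206-3p, mmu-miR-208a-3p and mmu-miR-499-5p. The counts held no other arm or member of these families, and no miR-1b. The lowest total of any entry in these counts was 32 over the 6 libraries, so absent miRNAs may have been present at fewer reads. The study sequenced small RNA from kidneys of male balb/c mice in 3 CIH libraries and 3 Control libraries. Mice of the CIH group spent 8 hours per day for 8 weeks in a chamber whose oxygen was lowered to 6% and returned to 21% in 2-minute cycles, and mice of the Control group received room air in a chamber. No age, no genetic change and no pooling is given for either group. It is not stated that each library came from its own mouse, so the p-values measure the spread between these libraries, which may be technical.

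Muscle-restricted miRNAs are made from a few transcripts that muscle transcription factors switch on. miR-1 and miR-133a come from shared transcripts in heart and skeletal muscle, where miR-1 promotes differentiation of muscle cells and miR-133 holds back serum response factor. miR-206 and miR-133b come from a skeletal muscle transcript, and miR-206 is known for its role in satellite cells and in the repair of nerve-muscle contacts. miR-208a and miR-499 lie in introns of myosin heavy chain genes, from which they regulate the choice of myosin in heart and in slow muscle. Kidney has no striated muscle of its own. Its vessel walls hold smooth muscle, whose best known miRNAs are miR-143 and miR-145.

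Sequences are shown for the 4 members found in the RefSeq table of mouse miRNAs on GRCm38.p6, because the seed, bases 2 to 8 in capitals, is what pairs with target mRNAs.
mmu-miR-206-3p: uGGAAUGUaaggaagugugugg
mmu-miR-133b-3p: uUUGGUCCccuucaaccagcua
mmu-miR-499-5p: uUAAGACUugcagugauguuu
mmu-miR-208a-3p: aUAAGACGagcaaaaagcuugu
The seeds of mmu-miR-499-5p and mmu-miR-208a-3p hold the same base at 6 of their 7 positions. mmu-miR-206-3p lies at chr1:20679055-20679076 and mmu-miR-133b-3p at chr1:20682834-20682855, both on the plus strand. Their precursor genes Mir206 and Mir133b are 3686 bases apart and both overlap exons of the long noncoding gene Gm28653 on the same strand. mmu-miR-499-5p lies at chr2:155622893-155622913 on the plus strand, in an intron of Myh7b, and mmu-miR-208a-3p at chr14:54949072-54949093 on the minus strand, in an intron of Myh6, the gene of the alpha myosin heavy chain of heart. Gene overlaps come from GENCODE release M21 on GRCm38.

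All 6 members were detected in every library, and mmu-miR-1a-3p far exceeded the others. It held 361, 400.0 and 278 CPM in the CIH libraries, against 349, 295 and 364 CPM in the Control libraries. CPM is the library-size scaled count that edgeR gives after its TMM factors, by convention per 1e6 counts. These values rest on 1699 to 2930 counts in CIH and 1623 to 2684 counts in Control. mmu-miR-1a-3p made up between 90.6% and 93.3% of the summed CPM of the 6 members in each library, and it stood at position 113 of the 495 miRNAs by mean CPM. mmu-miR-133a-3p, its partner on the shared transcripts, had 14.6, 16.4 and 13.9 CPM in CIH, against 11.4, 12.0 and 15.4 CPM in Control. mmu-miR-499-5p had 9.66, 16.8 and 9.47 CPM in CIH, against 8.97, 12.0 and 16.6 CPM in Control. The ranges of both groups overlapped for each of these 3 miRNAs, and for mmu-miR-1a-3p the highest and the lowest of the 6 values were both CIH libraries.

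The other 3 members were close to the limit of what this depth can measure. mmu-miR-133b-3p had 20, 21 and 14 counts in CIH, against 13, 12 and 10 counts in Control. mmu-miR-206-3p had 16, 7 and 8 counts in CIH, against 15, 5 and 19 counts in Control. mmu-miR-208a-3p, which is known from heart muscle, had 10, 21 and 8 counts in CIH, against 7, 2 and 11 counts in Control. In CPM, each of the 3 lay between 0.363 and 2.87 in all libraries, and they stood at positions 421, 443 and 457 of 495. A count was worth between 0.125 and 0.181 CPM, so a few reads more or less move these values visibly. For example, the 2 counts of mmu-miR-208a-3p in Control replicate 2 have an exact 95% Poisson interval of 0.242 to 7.22 counts. Such intervals cover counting error only, because the reads carry no molecular identifiers.

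**Figure D1:**
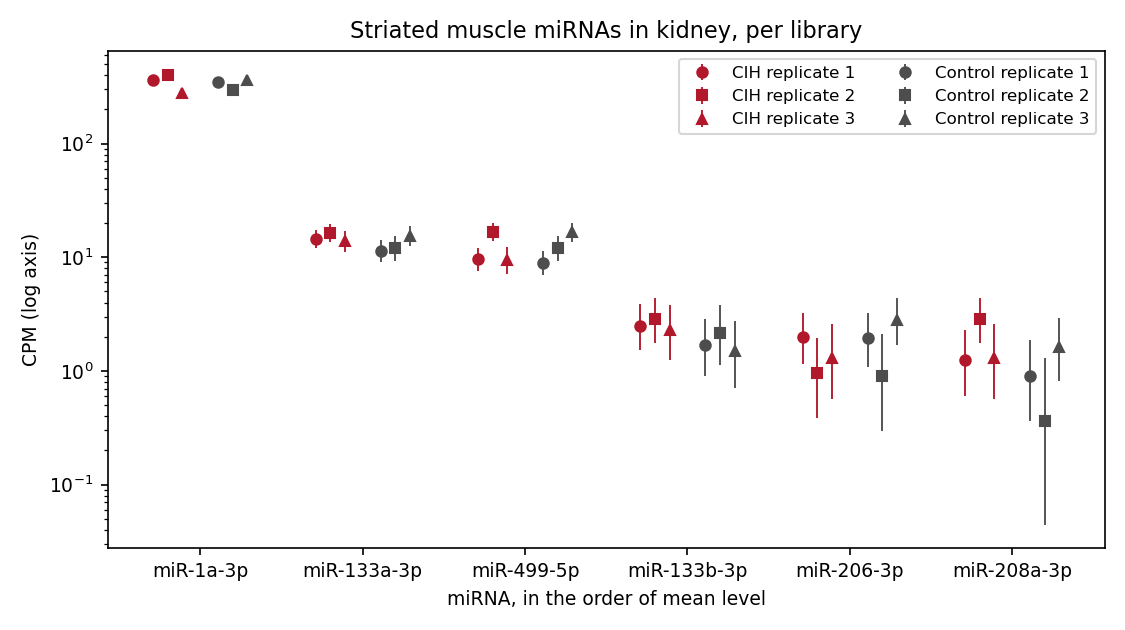
CPM of the 6 striated muscle miRNAs in each library (log axis), with CIH replicates in red left of Control replicates in grey and exact 95% Poisson intervals as bars. mmu-miR-1a-3p lies between 278 and 400.0 CPM, mmu-miR-133a-3p and mmu-miR-499-5p between 8.97 and 16.8 CPM, and the other 3 between 0.363 and 2.87 CPM.

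By mean level the order was mmu-miR-1a-3p, mmu-miR-133a-3p, mmu-miR-499-5p, mmu-miR-133b-3p, mmu-miR-206-3p and mmu-miR-208a-3p. Libraries favour some small RNA sequences over others in adapter ligation, so an order of read counts is not strictly an order of molecules. The 5 steps between neighbours were tested over the 6 libraries on log2(CPM + 0.5) with an exact two-sided sign-flip permutation test, whose smallest possible p is 0.0312. mmu-miR-1a-3p was above mmu-miR-133a-3p in 6 of 6 libraries, by 4.56 ± 0.19 on the log2 scale (SD, n = 6, exact p = 0.0312, adjusted over the 5 steps 0.0781). mmu-miR-499-5p was above mmu-miR-133b-3p in 6 of 6 libraries, by 2.23 ± 0.49 (SD, n = 6, exact p = 0.0312, adjusted 0.0781). The difference between mmu-miR-133a-3p and mmu-miR-499-5p was smaller than its spread (mean log2 difference 0.22 ± 0.30, exact p = 0.25, adjusted 0.352), and in Control replicate 2 both had 66 counts. mmu-miR-133b-3p and mmu-miR-206-3p (0.35 ± 0.72, exact p = 0.281, adjusted 0.352) and mmu-miR-206-3p and mmu-miR-208a-3p (0.24 ± 0.76, exact p = 0.438, adjusted 0.438) likewise had differences smaller than their spread. With 5 steps, at least 4 would have to reach the smallest p before any could pass 0.05 after adjustment. The steps were also ordered by the same means that they compare, so the order is a description of these libraries.

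No striated muscle miRNA passed the test between CIH and Control kidneys. At an adjusted p under 0.05 by edgeR's quasi-likelihood test, 0 of the 6 members and 0 of all 495 miRNAs (0%) were called, and DESeq2 and limma also called 0. At an unadjusted p under 0.05, 0 of the 6 members were called, against 39 of 495 (7.88%) by edgeR, and 29 by DESeq2 and 35 by limma over the same table. With an unadjusted p of at most 0.05 and a change of at least 1.5-fold, 0 of the 6 members and 19 of 495 (3.84%) were called. Among the 6, 4 had a positive and 2 a negative log2 fold change, with a median of 0.13, and over all miRNAs 48.3% were positive, with a median of -0.003. In whole tissue, fewer cells of a type and less of the RNA per cell cannot be told apart.

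mmu-miR-1a-3p averaged 346 ± 62.5 CPM in CIH and 336 ± 36.6 CPM in Control (SD, n = 3 each). Its log2 fold change was 0.04 (standard error 0.15, adjusted p = 0.95 from edgeR), and the 95% interval of the CIH to Control ratio ran from 0.816 to 1.30, so a change of 1.5-fold in either direction lies outside it. The sign of this difference turned without CIH replicate 2 (-0.07) and without Control replicate 2 (-0.04). mmu-miR-133a-3p averaged 14.9 ± 1.29 CPM in CIH and 12.9 ± 2.17 CPM in Control (SD, n = 3 each), a difference of 0.21 on the log2 scale with a standard error of 0.18 (edgeR adjusted p = 0.82) and an interval of the ratio from 0.871 to 1.53. Without Control replicate 3 its log2 fold change was 0.35, and without Control replicate 1 it was 0.09. For these better measured members the intervals bound the difference between these libraries, and the bound is tighter for mmu-miR-1a-3p. They bound a difference between mice only if each library came from its own mouse.

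mmu-miR-133b-3p was the only member whose groups did not overlap. It had 2.51, 2.87 and 2.29 CPM in CIH, against 1.69, 2.18 and 1.48 CPM in Control, and averaged 2.55 ± 0.293 CPM in CIH and 1.78 ± 0.357 CPM in Control (SD, n = 3 each). Its log2 fold change was 0.54 (standard error 0.29, unadjusted p = 0.096, adjusted p = 0.79 from edgeR), with an interval of the ratio from 0.925 to 2.27. Over all miRNAs, 26 of 495 (5.25%) had every CIH library above every Control library and 36 (7.27%) every CIH library below, against 1 and 0 of the 6 members, and a count of 1 does not set the members apart from the table as a whole. The nearest values of the groups, 14 counts in CIH replicate 3 and 12 counts in Control replicate 2, have exact Poisson intervals of 7.65 to 23.5 and 6.20 to 21.0 counts. mmu-miR-133b-3p and mmu-miR-133a-3p are near-identical in sequence, and reads of one may be counted for the other.

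The members with a heart or slow muscle background split in sign. mmu-miR-208a-3p had 1.25, 2.87 and 1.31 CPM in CIH, against 0.910, 0.363 and 1.63 CPM in Control. On the log2 scale its difference of 0.86 was the largest of the 6 and had the largest standard error, 0.53 (edgeR adjusted p = 0.79), and the ratio's interval ran from 0.803 to 4.08. CIH replicate 2 alone held 21 of its 59 counts, and without this library the log2 fold change was 0.35. Without Control replicate 3 it was 1.40, with an unadjusted p of 0.042 and an adjusted p of 0.75 from edgeR. mmu-miR-499-5p averaged 12.0 ± 4.17 CPM in CIH and 12.5 ± 3.86 CPM in Control (SD, n = 3 each), a difference of -0.06 on the log2 scale with a standard error of 0.29 (edgeR adjusted p = 0.98). Its sign turned when CIH replicate 1 or CIH replicate 3 was left out (0.08 in both cases), and also without Control replicate 3 (0.20), while it was -0.38 without CIH replicate 2. mmu-miR-206-3p, the skeletal muscle member, had 2.01, 0.956 and 1.31 CPM in CIH, against 1.95, 0.907 and 2.82 CPM in Control. Its log2 fold change was -0.42 (standard error 0.45, adjusted p = 0.86 from edgeR), and -0.05 without Control replicate 3, which held the highest of the 6 values. The intervals of the ratio, 0.617 to 1.496 for mmu-miR-499-5p and 0.375 to 1.48 for mmu-miR-206-3p, leave room for sizeable differences that these libraries could not show.

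**Figure D2:**
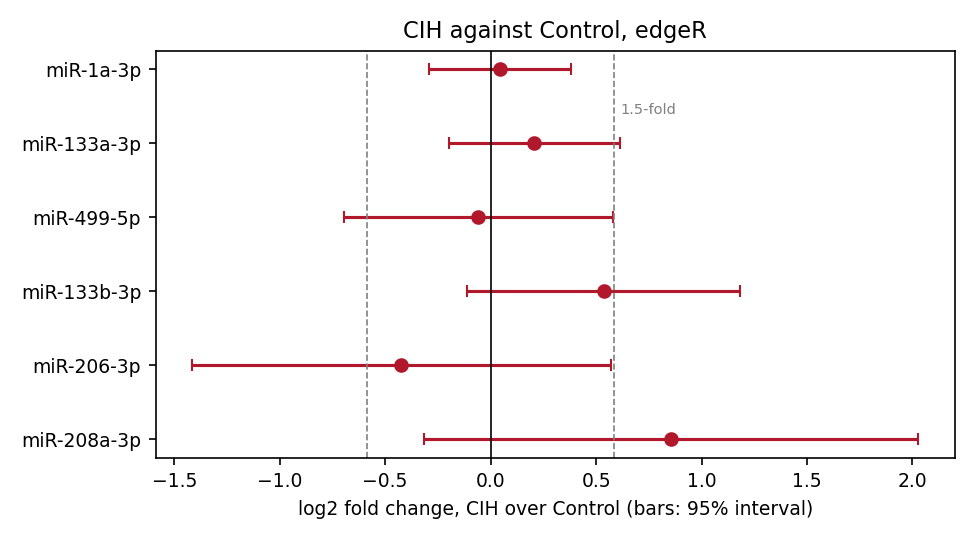
log2 fold change of each member, CIH over Control, from edgeR's quasi-likelihood fit, with the 95% interval as bars and a 1.5-fold change as dashed lines. All 6 intervals cross 0, from the narrowest, mmu-miR-1a-3p (0.04, standard error 0.15), to the widest, mmu-miR-208a-3p (0.86, standard error 0.53).

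The spread between replicates exceeded counting error for the abundant member. For mmu-miR-1a-3p the coefficient of variation of CPM was 18.1% in CIH and 10.9% in Control, where counting alone gives 2.00% and 2.11%. For mmu-miR-499-5p it was 34.8% in CIH and 30.8% in Control, with 10.8% and 11.0% from counting. mmu-miR-133a-3p, at a similar level, had only 8.65% in CIH and 16.7% in Control, with 9.67% and 10.8% from counting. The coefficient of variation of mmu-miR-133b-3p, 11.5% in CIH and 19.99% in Control, was below its counting error of 23.4% and 29.3%. For mmu-miR-208a-3p and mmu-miR-206-3p the coefficient lay above counting error in both groups, up to 65.8% in Control for mmu-miR-208a-3p. The gap was small for mmu-miR-206-3p in CIH, at 37.6% against 31.1% from counting. Each coefficient rests on 3 libraries, and its excess over counting error was not tested. For mmu-miR-1a-3p the spread between libraries, not depth, thus sets the precision.

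**Figure D3:**
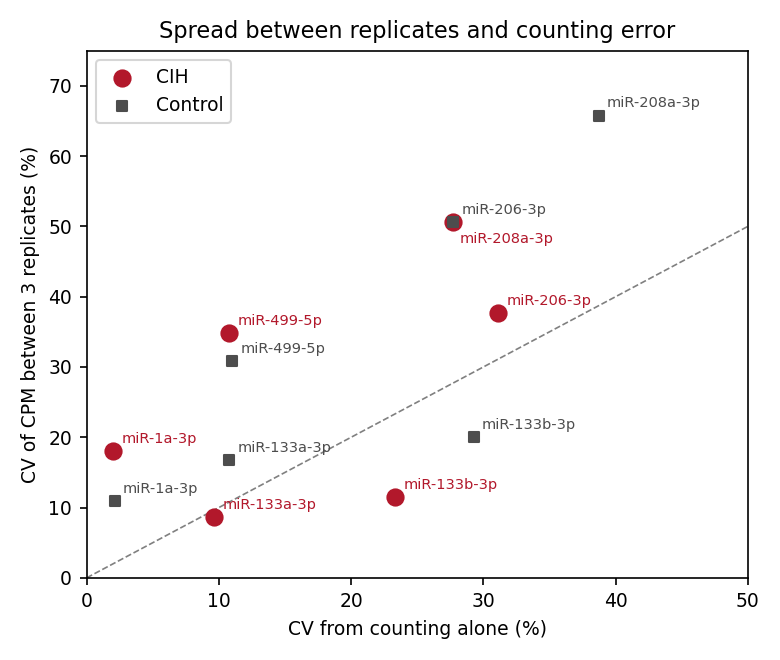
Coefficient of variation (CV) of CPM between the 3 replicates of a group against the CV that counting alone gives, in percent, for each member in CIH (red circles) and Control (grey squares). Points above the dashed line vary more than counting error, as mmu-miR-1a-3p does with 18.1% in CIH and 10.9% in Control, and mmu-miR-133b-3p lies below the line in both groups.

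Whether the members varied together between libraries was not settled by 6 libraries. CIH replicate 2 held the highest value of 5 of the 6 members, all but mmu-miR-206-3p, which was highest in Control replicate 3. The share of all miRNAs that were highest in CIH replicate 2 was not counted, so this does not set the members apart. The summed CPM of the 6 was 391, 439.8 and 306 in CIH, against 374, 322 and 402 in Control, or at most 0.044% of a library. Over the 6 libraries, mmu-miR-1a-3p and mmu-miR-133a-3p had a Pearson r of 0.54 (exact permutation p = 0.256) and a Spearman rho of 0.77 (exact permutation p = 0.103) on log2(CPM + 0.5). Among the 15 pairs of members, the smallest Pearson p was that of mmu-miR-133a-3p and mmu-miR-208a-3p (r = 0.86, exact permutation p = 0.0167, adjusted 0.25, and rho = 0.89, exact permutation p = 0.0333, adjusted 0.438). Without the 2 libraries farthest from the median of mmu-miR-133a-3p, that r was 0.91, a value too few libraries carry to show stability. Leaving out the 2 libraries farthest for the first-named miRNA moved other pairs strongly. For mmu-miR-133b-3p and mmu-miR-1a-3p, r went from 0.07 to 0.93, and for mmu-miR-1a-3p and mmu-miR-206-3p from 0.31 to -0.78. Over all 6 libraries, other pairs ran the other way or showed no relation. mmu-miR-133b-3p and mmu-miR-206-3p had r = -0.71 (exact permutation p = 0.125, adjusted 0.552), and mmu-miR-206-3p and mmu-miR-499-5p stood at r = -0.05. No pair passed after adjustment. These values pool both groups, since 3 libraries in a group are too few for a value within it.

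**Figure D4:**
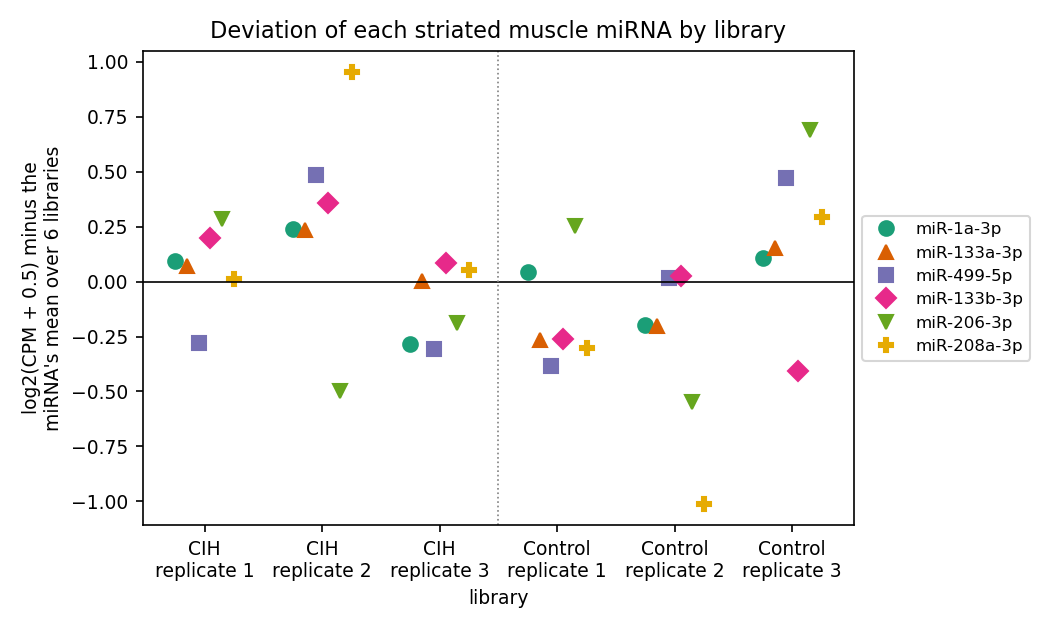
log2(CPM + 0.5) of each member in each library, as the difference from that member's mean over the 6 libraries, with CIH libraries left of the dotted line and Control libraries right of it. CIH replicate 2 lies above the mean for 5 members and below it for mmu-miR-206-3p, and the widest range is that of mmu-miR-208a-3p.

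The ratio of mmu-miR-1a-3p to mmu-miR-133a-3p counts lay between 19.99 and 30.5 in the 6 libraries. It was 24.8, 24.4 and 19.99 in CIH, against 30.5, 24.6 and 23.6 in Control, with means of 23.1 ± 2.66 and 26.2 ± 3.73 (SD, n = 3 each). The Wilson 95% intervals of these ratios ran from 16.1 to 29.8 over the CIH libraries and from 19.2 to 37.7 over the Control libraries and overlapped throughout. Their precursors on chromosome 2, Mir1a-1 from 180389048 to 180389124 and Mir133a-2 from 180398379 to 180398482, are 9254 bases apart on the plus strand and overlap no other annotated gene. A second precursor of each lies on another chromosome, and counts of the mature miRNA cannot be told apart by precursor. The counts list each of these 2 miRNAs in 2 entries. Both entries of mmu-miR-133a-3p are identical, and those of mmu-miR-1a-3p differ in 1 library, by 2 counts.

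Ratios were also taken between members whose precursors lie on different chromosomes. mmu-miR-133a-3p to mmu-miR-133b-3p stood at 5.80, 5.71 and 6.07 in CIH, against 6.77, 5.50 and 10.4 in Control. mmu-miR-499-5p to mmu-miR-208a-3p stood at 7.70, 5.86 and 7.25 in CIH, against 9.86, 33.0 and 10.2 in Control. In this last pair every CIH ratio lay below every Control ratio. These ratios rest on 10, 21 and 8 counts of mmu-miR-208a-3p in CIH, against 7, 2 and 11 counts in Control. The Wilson 95% intervals, 3.70 to 9.27 in CIH replicate 2 and 4.61 to 21.1 in Control replicate 1 for instance, overlapped. How often ratios of other miRNAs separate the groups was not counted. The ratios were set side by side after the values were seen, with no test. mmu-miR-1a-3p to mmu-miR-206-3p ranged from 180 to 419 in CIH and from 129 to 325 in Control.

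Each member was also set beside the miRNAs most like it, by the Pearson correlation of log2(CPM + 0.5) over the 6 libraries with every miRNA of at least 10 CPM on average (302 miRNAs, among them mmu-miR-1a-3p, mmu-miR-133a-3p and mmu-miR-499-5p but not the 3 scarce members). All libraries share their depth scaling, and with 6 points and 302 candidates high values arise readily, so this is a description without p-values. mmu-miR-103-3p (r = 0.93), mmu-miR-21a-5p (0.86) and mmu-miR-379-5p (0.85) were most like mmu-miR-1a-3p. mmu-miR-324-5p (0.96), mmu-miR-129-5p (0.92) and mmu-miR-532-5p (0.91) were most like mmu-miR-133a-3p. mmu-miR-208a-3p was closest to mmu-miR-378a-3p (0.99), a miRNA of energy metabolism made in an intron of Ppargc1b, then to mmu-miR-21c (0.91) and mmu-miR-21a-5p (0.90). mmu-miR-206-3p was closest to mmu-miR-322-5p (0.95), mmu-miR-365-2-5p (0.93) and mmu-miR-322-3p (0.93). mmu-miR-133b-3p was closest to mmu-miR-196a-5p (0.96), mmu-miR-22-5p (0.95) and mmu-let-7d-3p (0.94). mmu-miR-499-5p had looser neighbours, mmu-miR-30e-3p (0.82), mmu-miR-3470b (0.81) and mmu-miR-324-5p (0.78). At the other end, mmu-miR-149-5p (-0.89), mmu-miR-365-3p (-0.87) and mmu-miR-106a-5p (-0.85) were least like mmu-miR-1a-3p. mmu-miR-340-5p (-0.97) was least like mmu-miR-133b-3p and mmu-miR-30c-5p (-0.92) least like mmu-miR-133a-3p, while mmu-miR-301a-3p stood among the 3 least like of both mmu-miR-133a-3p (-0.91) and mmu-miR-208a-3p (-0.92). mmu-miR-872-3p (-0.94) was least like mmu-miR-208a-3p, mmu-miR-423-5p (-0.92) least like mmu-miR-206-3p and mmu-miR-671-5p (-0.87) least like mmu-miR-499-5p. The erythroid mmu-miR-451a was also among the 3 least like mmu-miR-499-5p (-0.81).

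miRNAs known to regulate muscle cells without being restricted to muscle were far more abundant as a sum in these kidneys and did not pass either. Their mean levels ran from 3.28 CPM (mmu-miR-489-3p) to 37921 CPM (mmu-miR-26a-5p). Several lay below the 341 CPM of mmu-miR-1a-3p, as mmu-miR-29c-3p did at 179 CPM. All 21 of a list of such miRNAs were measured, and they summed to between 126349 and 132256 CPM in CIH, against 118209 to 131771 CPM in Control. At an adjusted p under 0.05 by edgeR, 0 of the 21 were called. At an unadjusted p under 0.05 by edgeR, 2 of the 21 were higher and 1 of the 21 was lower in CIH. Over all 495 miRNAs, 14 (2.83%) were higher and 25 (5.05%) lower. The median log2 fold change of the 21 was 0.03. The higher ones of the 21 were mmu-miR-486a-5p and its near-twin mmu-miR-486b-5p, which are found in muscle and also in red blood cells. mmu-miR-486a-5p had 578, 586 and 649.9 CPM in CIH, against 535, 477 and 386 CPM in Control (log2 fold change 0.38, standard error 0.13, adjusted p = 0.58 from edgeR). The near-twin had much the same counts and is not separate evidence. The other erythroid miRNAs had log2 fold changes of 0.01 (mmu-miR-451a), -0.09 (mmu-miR-144-3p) and 0.09 (mmu-miR-144-5p). The part that red blood cells had in these values was not tested. The lower one of the 21 was mmu-miR-29b-3p, of a family that represses collagens. It had 759, 753 and 721 CPM in CIH, against 849, 900.4 and 895 CPM in Control (log2 fold change -0.24, standard error 0.098, adjusted p = 0.58 from edgeR). Among the satellite cell regulators, mmu-miR-27b-3p, which represses Pax3, was at 0.11 (standard error 0.10). mmu-miR-31-5p, which represses Myf5, was at -0.22 (standard error 0.20). mmu-miR-489-3p, which keeps satellite cells quiescent, was at -0.24 (standard error 0.36) and rested on 10 to 33 counts per library. None of these reached an unadjusted p under 0.05 by edgeR.

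**Figure D5:**
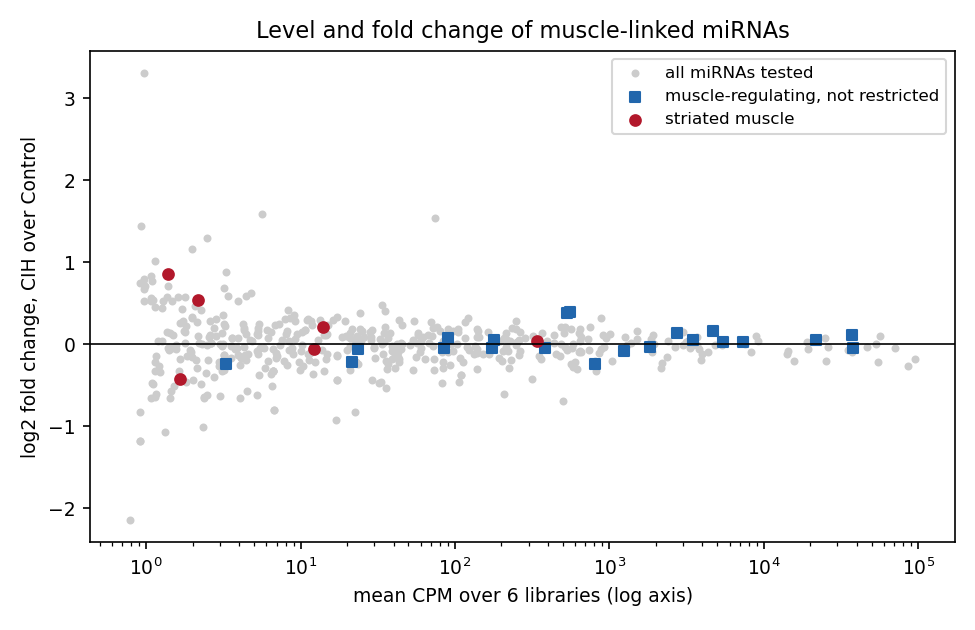
log2 fold change, CIH over Control, against mean CPM over the 6 libraries (log axis) for all 495 miRNAs (grey), the 21 muscle-regulating miRNAs that are not restricted to muscle (blue squares) and the 6 striated muscle miRNAs (red circles). The scarce members mmu-miR-208a-3p (0.86), mmu-miR-133b-3p (0.54) and mmu-miR-206-3p (-0.42) lie where grey points scatter most, and mmu-miR-1a-3p (0.04) lies close to 0.

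Markers of the tissue and of neighbouring cells give the scale. The 4 tubule miRNAs mmu-miR-192-5p, mmu-miR-194-5p, mmu-miR-30a-5p and mmu-miR-204-5p summed to between 148044 and 172559 CPM in CIH, against 144364 to 205312 CPM in Control. The 4 smooth muscle miRNAs summed to between 46514 and 51465 CPM in CIH, against 46134 to 53299 CPM in Control, with a median log2 fold change of -0.02, and 0 of them reached an unadjusted p under 0.05. The liver miRNA mmu-miR-122-5p ran from 19.6 to 77.9 CPM in CIH, against 17.4 to 48.1 CPM in Control, and was highest in CIH replicate 3, where mmu-miR-1a-3p was lowest. The pancreatic mmu-miR-217-5p held 4.57 CPM in that library and at most 0.502 CPM in every other, including 0 counts in Control replicate 2 (log2 fold change 3.31, unadjusted p = 0.030, adjusted p = 0.58 from edgeR). mmu-miR-216a-5p and mmu-miR-216b-5p, also listed for pancreas, were not among the miRNAs measured. Endothelial miRNAs summed to between 52882 and 56041 CPM in CIH, against 49948 to 59944 CPM in Control, leukocyte miRNAs to between 894 and 993 CPM in CIH, against 837 to 997 CPM in Control, and erythroid miRNAs to between 5671 and 7302 CPM in CIH, against 5442 to 6685 CPM in Control. Of the miRNAs listed for neurons, mmu-miR-124-3p was not among those measured. The measured ones, mmu-miR-9-5p and mmu-miR-9-3p, together ran from 523 to 946 CPM in CIH, against 895 to 1030 CPM in Control. Their sum was lowest in CIH replicate 1, and whether it reflects neurons was not tested. Of this pair, mmu-miR-9-3p had a log2 fold change of -0.48 (unadjusted p = 0.047, adjusted p = 0.63 from edgeR), and the tubule miRNA mmu-miR-204-5p had 40.5, 49.7 and 53.4 CPM in CIH, against 60.2, 59.2 and 59.4 CPM in Control (log2 fold change -0.32, unadjusted p = 0.053, adjusted p = 0.64 from edgeR). The urothelial mmu-miR-205-5p held 0.502 CPM in CIH replicate 1, against 18.6 and more in every other library, while mmu-miR-203-3p, the other miRNA of that list, was highest in CIH replicate 1 at 2049 CPM, and the striated muscle miRNAs of that library lay within the range of the others. The part that other tissue in a sample had in these values was not tested.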

How the data were processed

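Kidney small RNA was sequenced in 3 CIH and 3 Control samples, grouped by their titles. The authors deposited raw read counts per mature miRNA and precursor. The submitters' processing notes name cutadapt and Bowtie. Tool versions, and the genome build, were not given in the sources used here. Labels name an NEBNext small RNA kit and the paper an Illumina cluster kit. For a name with several rows, the row with the highest total was kept (495 miRNAs from 584 rows). Library totals were 5431797 to 7741499 counts.

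edgeR 4.0.16 in R 4.3.3 was run on all 495 miRNAs, each with a count in at least 3 libraries (quasi-likelihood test, TMM, CIH against Control, Benjamini-Hochberg). The biological coefficient of variation was 15.7%. Standard errors are the absolute log2 fold change over the square root of F. DESeq2 1.42.0, limma 3.58.1 on log2(CPM + 0.5) and scipy 1.17.1 were also used. Alternatives covered scaling, pseudocount, low-count filters, repeated rows, a replicate block and leaving out each library. The edgeR script was tested on simulated data. The members, lists and the rule for named miRNAs (members, listed miRNAs, and the 3 most and 3 least correlated with a member) were chosen with earlier results of these data known.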

Additional observations from a re-analysis of the deposited data

How the results depend on the processing

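In 93 of 99 alternative values the 6 members kept their sign, and in all 99 they stayed short of an adjusted p of 0.05 (lowest 0.44, for mmu-miR-133b-3p without Control replicate 2). The others were sign changes around 0. mmu-miR-499-5p was at 0.00495 without TMM and ran from -0.38 to 0.20 with 1 library left out, and mmu-miR-1a-3p from -0.074 to 0.18. No alternative called a miRNA at an adjusted p of 0.05. At an unadjusted p under 0.05, 39 miRNAs became 24 at a mean of at least 10 CPM, where fewer were tested, and 21 to 67 with 1 library left out. At p of at most 0.05 and 1.5-fold, 19 became 10 by DESeq2, 10 by limma with a pseudocount of 1, 2 at a mean of at least 10 CPM, and 11 to 20 with 1 library left out. With a replicate block mmu-miR-1a-3p was at 0.03 and mmu-miR-133b-3p at 0.52, and 32 miRNAs had an unadjusted p under 0.05. Same-numbered libraries deviated from their group means with correlations of -0.06, -0.15 and -0.03, against -0.13 to 0.19 between differently numbered ones. No pairing by number was seen, though so few libraries cannot exclude it. At a mean of at least 10 CPM, mmu-miR-133b-3p, mmu-miR-206-3p and mmu-miR-208a-3p give no value. Depth limits these 3 most, at 59 to 90 counts each over the 6 libraries.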
